A study of Mus musculus with 8 samples.

Results

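Adrenergic receptors are the cell surface receptors for noradrenaline and adrenaline, and the mRNA of 8 of them was followed in brown adipose tissue (BAT) of 4 control and 4 Ox1RΔSERT mice. The genes were the beta receptors *Adrb1* and *Adrb3*, the alpha-1 receptors *Adra1a*, *Adra1b* and *Adra1d*, and the alpha-2 receptors *Adra2a*, *Adra2b* and *Adra2c*. They were listed by gene symbol, with earlier results of these data known, and they make up 8 of the 44674 genes in the data. Of these, 5 had more than 3 estimated counts in all 8 mice, and the same 5 passed the filter on low counts that precedes the comparison of the groups.

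All 8 mice were males that carried the floxed Ox1R alleles (Ox1R fl/fl) and received a high-fat diet (HFD) from week 4 to week 18 of age. Ox1RΔSERT mice (labelled Sert-Ox1R) had in addition 1 copy of the Sert-Cre transgene, which is driven by the gene of the serotonin transporter, and control mice (labelled CTRL) came from the same breeding without it. Sert-Cre acts in serotonergic neurons and also in some cells of the cortex and thalamus. The deletion was thus not directed at BAT, and no adrenergic receptor was targeted. Tissue was taken at the end of a hyperinsulinemic-euglycemic clamp, in which insulin is infused while glucose is given to hold blood glucose steady, so that both groups were insulin-stimulated.

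In BAT, noradrenaline is released from sympathetic nerves. Beta receptors act through the stimulatory G protein Gs on adenylyl cyclase, and the cAMP formed activates protein kinase A, which drives lipolysis and the thermogenic program of the brown adipocyte. The receptor encoded by *Adrb3* is the classical beta receptor of rodent adipocytes. Alpha-2 receptors act through Gi, which inhibits adenylyl cyclase, and alpha-1 receptors act through Gq on phospholipase C beta.

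Total counts ranged from 35852708 to 50063339 per mouse. Mitochondrially encoded genes took 40.0% to 46.8% of them in control and 33.6% to 44.6% in Ox1RΔSERT mice. *Ucp1*, the defining thermogenic gene of brown adipocytes, had TPM values between 1863 and 2638 in the 8 mice. Ox1RΔSERT mice 11601 and 11708 stood apart from the other 6 mice, with 61.6 and 80.5 on the first principal component against -47.5 to 8.62, and had the highest summed TPM of macrophage and other leukocyte markers (591 and 421, against 45.3 to 97.6 in the other mice) and of fibroblast markers (1754 and 785, against 102 to 276). Summed TPM of the skeletal muscle markers was 513 in control mouse 11253, 1017 in Ox1RΔSERT mouse 11708 and 104 in Ox1RΔSERT mouse 11601, and 16.5 or lower in the other 5 mice. *Hcrtr1*, which encodes Ox1R, had 0 to 5 counts in either group, too few to check the deletion in this tissue.

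Levels of the receptors were compared with each other in TPM, which is scaled for transcript length. *Adrb3* mRNA was by far the most abundant, with a mean TPM of 107 over the 8 mice, which ranked 517 among the 24574 genes with any TPM. The control mice 10684, 11253, 11563 and 11560 had TPM of 90.9, 66.2, 75.8 and 99.1, while the Ox1RΔSERT mice 11708, 11243, 11613 and 11601 had 123, 109, 210 and 79.7. In TPM, 3 of the 4 Ox1RΔSERT mice lay above every control mouse, and mouse 11601 lay within the control range.

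*Adra1a*, the Gq-coupled receptor with the second highest level, had a mean TPM of 11.7 (rank 3685). Its TPM was between 8.65 and 13.9 in both groups together. *Adrb1*, the other beta receptor and the main one of the heart, had a mean TPM of 6.58 (rank 5496) and a range of 3.37 to 8.35. *Adra1d*, an alpha-1 receptor best known from vascular smooth muscle, had a mean TPM of 3.84 (rank 7365) and a range of 2.05 to 5.22.

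The other 4 receptors were all far lower. Mean TPM was 0.0852 for *Adra2b*, 0.0621 for *Adra1b*, 0.0534 for *Adra2c* and 0.0326 for *Adra2a*, so that every alpha-2 receptor, the inhibitory class, was in the lowest group. Within each mouse, *Adra1d* exceeded *Adra2b* by at least 25.3 times in TPM.

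**Figure D1:**
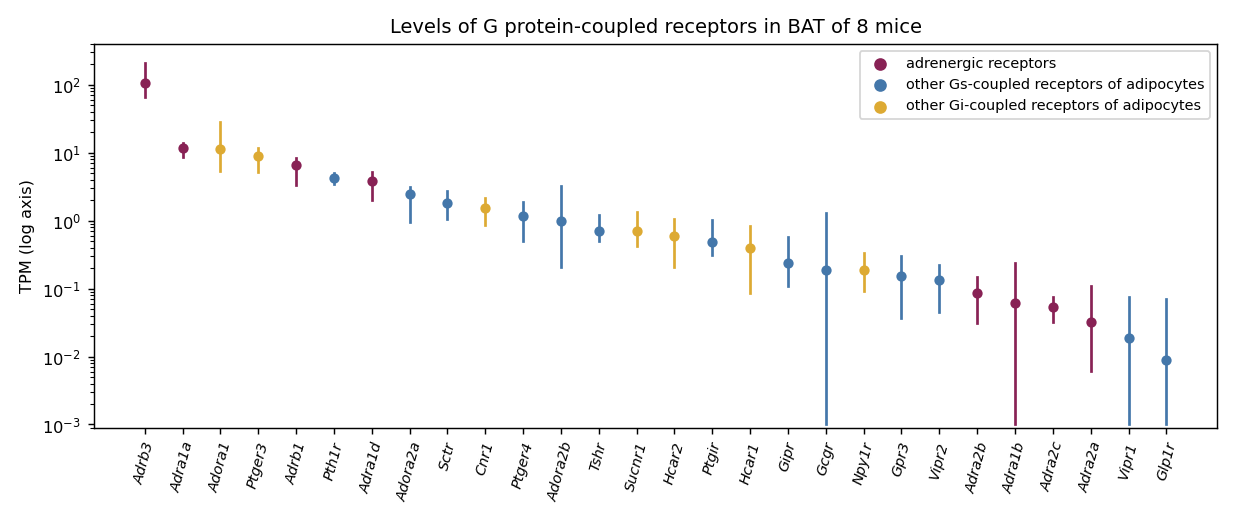
TPM (log axis) of the 8 adrenergic receptors and of the listed Gs- and Gi-coupled receptors of adipocytes, ordered by level, with points for the mean of 8 mice and lines from the lowest to the highest mouse; lines that reach the bottom of the axis include a mouse at 0. *Adrb3* stands alone at a mean of 107, *Adra1a*, *Adrb1* and *Adra1d* lie between 3.84 and 11.7, and the other 4 adrenergic receptors are near the low end.

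The order *Adrb3*, *Adra1a*, *Adrb1*, *Adra1d* held within each of the 8 mice. *Adrb3* exceeded *Adra1a* by 5.73 to 15.2 times (median 8.33), and the ranges of both over the 8 mice did not overlap. *Adra1a* exceeded *Adrb1* by 1.19 to 2.57 times (median 1.75), again with separate ranges. *Adrb1* exceeded *Adra1d* by 1.08 to 2.23 times, but here the ranges over the mice overlapped, so the 2 neighbours were ordered within mice and not across them. Among the low receptors the order was less firm: *Adra2b* was above *Adra2c* in 7 of 8 mice, with overlapping ranges and a TPM ratio between 0.494 and 4.51.

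Counts show which of the receptors were measured. *Adrb3* had 4650 to 14834 estimated counts in the 8 mice, *Adra1a* 1333 to 2525, *Adrb1* 229 to 750 and *Adra1d* 93 to 311. These 4 receptors were above 10 counts in all 8 mice. *Adra2b*, with 7 to 26 counts, was above 3 counts in all 8 mice but above 10 in 5 of them. *Adra2c* had 3 to 7 counts and was above 3 in 6 mice. *Adra1b* (0 to 24 counts) and *Adra2a* (1 to 13 counts) were above 3 counts in 4 mice each. On the scale of normalized values (CPM after TMM scaling) 3 counts were worth 0.0592 to 0.0951, a floor that covers counting error only, so differences of *Adra1b*, *Adra2a* and *Adra2c* were hardly detectable at this depth.

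In the mouse annotation GENCODE M21 on GRCm38, the 8 genes lie on 6 chromosomes. *Adrb3* (ENSMUSG00000031489) lies at chr8:27225776-27250616 on the minus strand and *Adrb1* (ENSMUSG00000035283) at chr19:56722199-56733113 on the plus strand. *Adra1a* (ENSMUSG00000045875) lies at chr14:66635251-66771168, plus strand, *Adra1b* (ENSMUSG00000050541) at chr11:43774606-43901210, minus strand, and *Adra1d* (ENSMUSG00000027335) at chr2:131545850-131562283, minus strand. The alpha-2 genes *Adra2a* (ENSMUSG00000033717, chr19:54044151-54048982), *Adra2b* (ENSMUSG00000058620, chr2:127363208-127367221) and *Adra2c* (ENSMUSG00000045318, chr5:35278319-35281763) are all on the plus strand, and each has a single merged exon. *Adrb3* shares 839 of its 3376 exon bases with the antisense gene *Gm45470*, which was not analysed here, and *Adra1d* shares 147 of 1899 with the antisense gene *Gm14285*, which had 3 to 11 counts. Libraries were stranded, but whether quantification used the strand is not given in the sources used here, so reads from these stretches may belong to either gene. The other 6 receptors share no exon bases with another gene. Among other genes named below, *Adcy3* shares 1380 of 6246 exon bases with *Cenpo* and *Adora1* 1162 of 5785 with *Mybph*, each on the opposite strand. *Gnas* shares 1469 and 988 of 11186 with *Gm20721* and *Nespas*, also on the opposite strand. The same limit holds for these and for other listed genes with such an overlap.

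Promoter windows of RefSeq (GRCm38.p6, the 250 bases before a gene's start) were found for 5 of the 8 receptors. They were searched for TGACG, the core of the cAMP response element, on both strands, since cAMP is the second messenger that beta receptors raise. Of the 32851 windows of that length in the table, 17.8% hold this motif. It was found in the windows of *Adrb1* and *Adra2a*, once in each, and in none of the windows of *Adra1b*, *Adra2b* and *Adra2c*. The windows of *Adrb1* and *Adra2b* are shown because these are the 2 tested receptors that have one, and they differ in the motif. They read 5′ to 3′ along the plus strand at chr19:56721867-56722116 and chr2:127362929-127363178, with the motif in capitals:
*Adrb1*: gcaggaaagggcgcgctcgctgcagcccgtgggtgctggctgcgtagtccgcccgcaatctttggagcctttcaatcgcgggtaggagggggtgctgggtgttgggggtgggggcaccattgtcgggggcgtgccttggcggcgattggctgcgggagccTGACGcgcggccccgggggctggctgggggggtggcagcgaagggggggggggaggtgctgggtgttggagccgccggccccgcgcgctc
*Adra2b*: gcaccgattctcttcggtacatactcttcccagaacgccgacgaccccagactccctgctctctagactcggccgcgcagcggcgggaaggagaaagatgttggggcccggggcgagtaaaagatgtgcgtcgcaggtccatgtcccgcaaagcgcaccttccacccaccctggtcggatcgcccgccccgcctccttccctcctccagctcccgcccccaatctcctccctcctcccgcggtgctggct
The motif begins 90 bases before the RefSeq start in *Adrb1*. Both windows are rich in G and C, at 74% and 66% against a median of 52.4% over all windows. A match of letters describes the window and is not a binding site.

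The balance of the receptors was given as the share of each in the summed TPM of these 8 genes, and it overlapped between the groups. *Adrb3* took 80.4% ± 2.09 (SD, n = 4) in control mice and 82.9% ± 5.53 (SD, n = 4) in Ox1RΔSERT mice. By mouse, its share was 77.6%, 82.3%, 80.2% and 81.6% for controls 10684, 11253, 11563 and 11560, while Ox1RΔSERT mice 11708, 11243, 11613 and 11601 had 85.2%, 81.7%, 88.9% and 75.9%. The Ox1RΔSERT mice held both the highest and the lowest share and spanned the whole control range. *Adrb1* took 5.89% ± 1.25 and 4.78% ± 1.57, *Adra1a* 10.2% ± 1.86 and 9.06% ± 3.10, and *Adra1d* 3.26% ± 0.747 and 3.004% ± 0.993 in control and Ox1RΔSERT mice.

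By class, the Gs-coupled beta receptors, here *Adrb1* and *Adrb3* only, took 86.3% ± 1.35 in control and 87.7% ± 4.21 in Ox1RΔSERT mice (SD, n = 4). The Gq-coupled alpha-1 receptors took 13.5% ± 1.31 and 12.2% ± 4.14 (SD, n = 4). The Gi-coupled alpha-2 receptors took 0.152% ± 0.0517 and 0.14% ± 0.0914. No share of a receptor or a class separated the groups, and the ranges overlapped for all of them. The ratio of *Adrb3* to *Adrb1*, both beta receptors, was between 10.9 and 19.7 in control mice and between 12.1 and 25.5 in Ox1RΔSERT mice.

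Summed TPM of the 8 receptors was 103 ± 19.3 (SD, n = 4) in control and 155 ± 56.5 in Ox1RΔSERT mice. By mouse, the sum was 117, 80.4, 94.4 and 121 for controls 10684, 11253, 11563 and 11560, while Ox1RΔSERT mice 11708, 11243, 11613 and 11601 had 144, 134, 236 and 105. The groups overlapped because mouse 11601 lay within the control range, and mouse 11613 was the highest. TPM adds up to the same total in every mouse, but the median tested gene was higher in TPM in Ox1RΔSERT mice. The median log2 difference of all tested genes was 0.32 on the log2(TPM + 0.1) scale and 0.0021 for TMM-scaled counts, which the next comparison uses. The higher summed TPM is thus not by itself a measure of more receptor RNA.

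**Figure D2:**
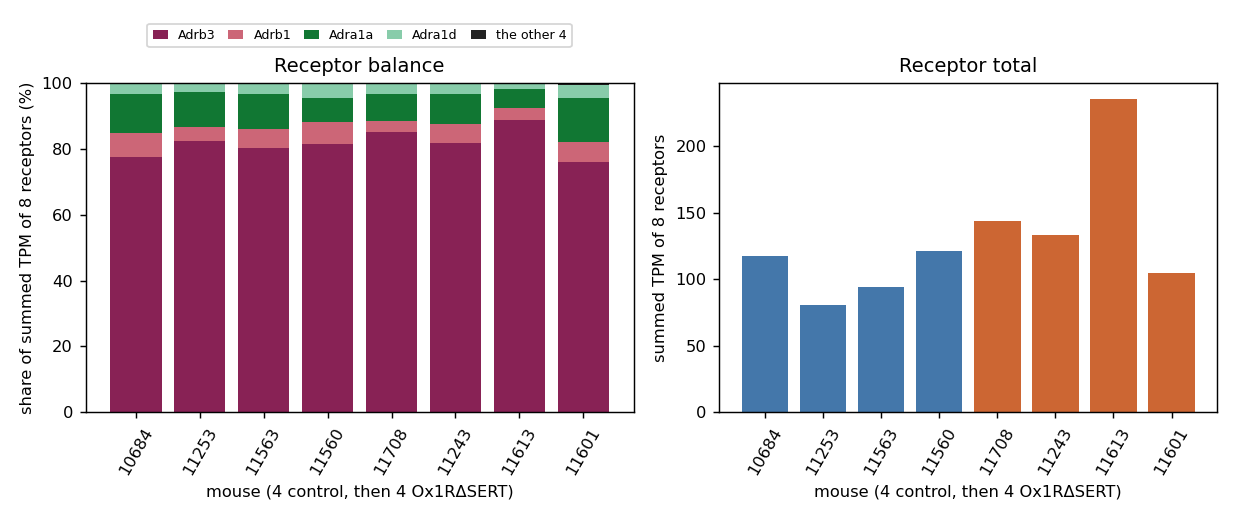
Left, share (%) of each receptor in the summed TPM of the 8 adrenergic receptors, 1 bar per mouse; right, the summed TPM in the same mice (control blue, Ox1RΔSERT orange). *Adrb3* takes 75.9% to 88.9% in every mouse, and the total runs from 80.4 to 236 with overlapping groups.

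Whether receptor mRNA differed between the groups was tested on counts over all 14489 genes that passed the filter. With edgeR's quasi-likelihood test and Benjamini-Hochberg adjustment, 0 of the 5 tested receptors had an adjusted p under 0.05, and the same held for all genes tested (0%). At an unadjusted p under 0.05 it was 0 of 5 receptors against 15.2% of all genes (10.2% higher and 4.96% lower), and in DESeq2 at an adjusted p under 0.05 it was 0 of the 5 receptors, the other 3 having no adjusted p, against 1.75% (1.54% higher and 0.211% lower). Normalized values of the groups did not overlap for 0 of 8 receptors, against 5.5% of all genes tested (2.69% higher and 2.81% lower). In bulk tissue, fewer cells of a type and less RNA per cell cannot be told apart.

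For *Adrb3*, the control mice 10684, 11253, 11563 and 11560 stood at normalized values of 186, 147, 148 and 198, while the Ox1RΔSERT mice 11708, 11243, 11613 and 11601 stood at 176, 232, 333 and 114. Mouse 11613 was the highest of all, 11243 was second, and mouse 11601 was the lowest of all, so the Ox1RΔSERT mice enclosed the control range. Means were 169.9 ± 26 and 214 ± 93.2 (SD, n = 4), with a log2 fold change of 0.33 (SE 0.29, 95% interval -0.33 to 0.99, edgeR adjusted p = 0.585). The exact permutation test gave p = 0.486, where the smallest p that 4 mice against 4 allow is 0.0286. In TPM the ratio of the group means was 1.57, compared with 1.26 for normalized values (exact permutation p = 0.114 for TPM). The log2 fold change was 0.03 without Ox1RΔSERT mouse 11613, 0.54 without Ox1RΔSERT mouse 11601 and 0.74 without mice 11601 and 11708, and none of these values had an adjusted p under 0.05.

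For *Adrb1*, the control mice 10684, 11253, 11563 and 11560 stood at normalized values of 16.5, 7.26, 10.9 and 15.4, while the Ox1RΔSERT mice 11708, 11243, 11613 and 11601 stood at 6.73, 16.4, 14.6 and 9.31. Each group held high and low mice over the same range. The log2 fold change was -0.09 (SE 0.33, 95% interval -0.84 to 0.66, edgeR adjusted p = 0.914), and its sign depended on the scaling, as it was 0.08 with library size scaling alone and 0.16 on log2(TPM + 1), both below the median of all genes on those scales (0.22 and 0.23).

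*Adra1a* was the most abundant alpha receptor. For this gene, the control mice 10684, 11253, 11563 and 11560 stood at normalized values of 59.5, 42.3, 41.8 and 40.6, while the Ox1RΔSERT mice 11708, 11243, 11613 and 11601 stood at 37.6, 55.1, 47.6 and 42.7. Control mouse 10684 was above all others and the remaining control mice were nearly equal. Means were 46.1 ± 9.0 and 45.8 ± 7.48 (SD, n = 4), and the log2 fold change was -0.01 (SE 0.16, edgeR adjusted p = 0.982). It had the narrowest interval of the 5 receptors, -0.37 to 0.35. Without control mouse 10684 the log2 fold change was 0.14, and with library size scaling alone it was 0.18, below the median of all genes on that scale (0.22).

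For *Adra1d*, the control mice 10684, 11253, 11563 and 11560 stood at normalized values of 5.10, 2.95, 3.76 and 7.02, while the Ox1RΔSERT mice 11708, 11243, 11613 and 11601 stood at 4.13, 5.87, 5.01 and 4.08. All Ox1RΔSERT mice lay inside the control range. The log2 fold change was 0.02 (SE 0.27, 95% interval -0.60 to 0.63, edgeR adjusted p = 0.980), and its sign turned in 7 of 22 alternatives.

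*Adra2b*, the alpha-2 receptor with the highest level, had 26, 10, 19 and 10 counts when control mice are taken in the order 10684, 11253, 11563 and 11560, while Ox1RΔSERT mice 11708, 11243, 11613 and 11601 had 24, 7, 11 and 16. With so few reads the groups overlapped widely. The log2 fold change was -0.41 (SE 0.45, 95% interval -1.44 to 0.61, edgeR adjusted p = 0.665), and it was -0.06 without control mouse 10684 and -1.0 without mice 11601 and 11708.

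**Figure D3:**
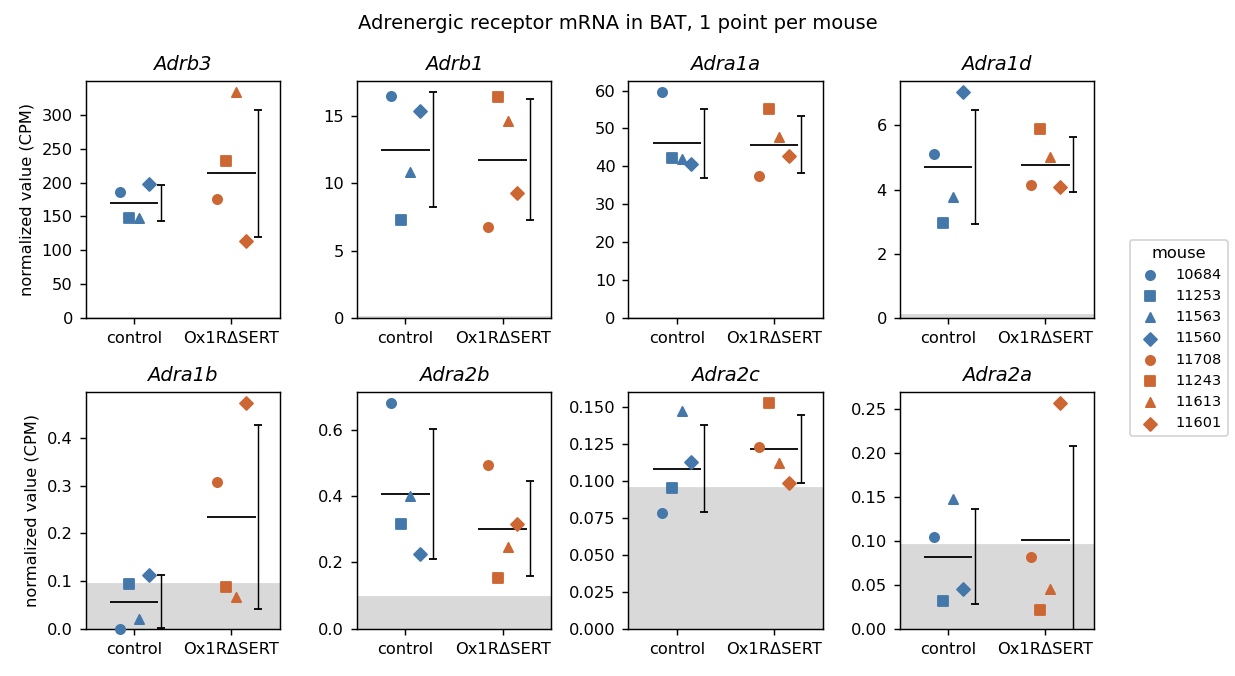
Normalized value (CPM after TMM scaling) of each receptor, 1 point per mouse, with the group mean (line) and SD (bar, n = 4); the axis starts at 0 and the grey band marks the floor of 3 counts at its highest, 0.0951. The groups overlap in all 8 panels, and *Adra1b*, *Adra2a* and *Adra2c* lie at or near the floor in most mice.

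**Figure D4:**
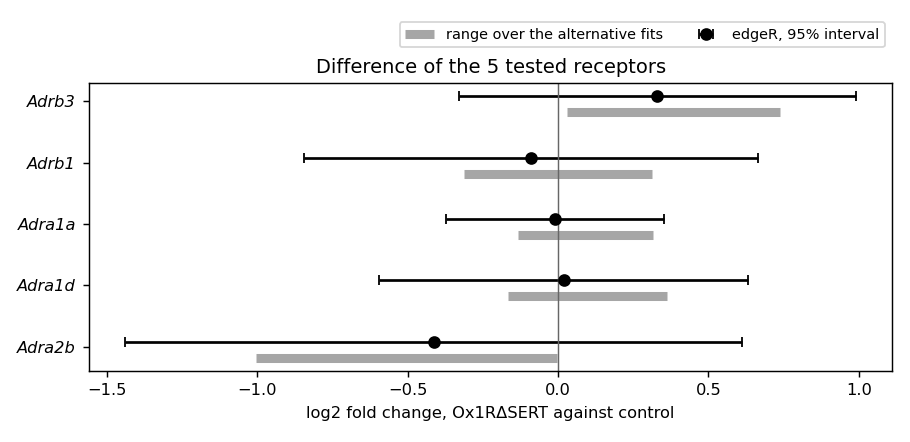
Log2 fold change of the 5 tested receptors, Ox1RΔSERT against control, with the 95% interval of edgeR's quasi-likelihood test (black) and the range of the value over the alternative fits (grey). All 5 intervals include 0, and the alternative values of *Adra1a*, *Adrb1* and *Adra1d* lie on both sides of it.

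Among the 3 receptors that were not tested, *Adra1b* was uneven between mice. The control mice 10684, 11253, 11563 and 11560 had 0, 3, 1 and 5 counts, while the Ox1RΔSERT mice 11708, 11243, 11613 and 11601 had 15, 4, 3 and 24. Mice 11601 and 11708 were above all control mice, whereas the other 2 Ox1RΔSERT mice were within the control range, and the exact permutation test on normalized values gave p = 0.171. The ratio of the group means was 4.09, and edgeR without a filter gave a log2 fold change of 1.97 (95% interval 0.01 to 3.93), a fit that called 0 genes at an adjusted p under 0.05, while DESeq2 gave an unadjusted p of 0.0579 and no adjusted p. These were the same 2 mice that had the highest leukocyte and fibroblast marker sums, given above, and the part of these cells in the *Adra1b* counts was not tested. *Adra2a* had its highest count, 13, also in mouse 11601, and 1 to 7 in the other mice (exact permutation p = 0.857). *Adra2c*, at 3 to 7 counts in every mouse, had an exact permutation p of 0.486.

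**Figure D5:**
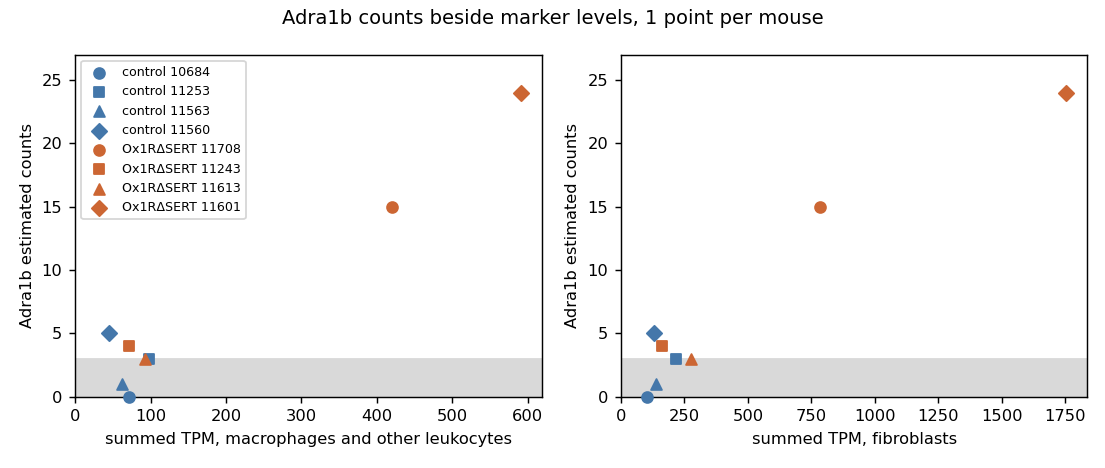
Estimated counts of *Adra1b* against the summed TPM of macrophage and other leukocyte markers (left) and of fibroblast markers (right), 1 point per mouse; the grey band marks counts of 3 or fewer. Mice 11601 and 11708, with 24 and 15 counts, lie apart from the other 6 mice on both axes.

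The receptors did not all vary together from mouse to mouse. On log2(normalized value + 0.1), over the 8 mice and as a description, Pearson's r was 0.807 between *Adrb1* and *Adra1d*, 0.727 between *Adrb1* and *Adra1a* and 0.586 between *Adrb1* and *Adrb3*. *Adrb3* had r = 0.553 with *Adra1d* and 0.387 with *Adra1a*. *Adra2b*, with only 7 to 26 counts per mouse, had r between -0.37 and 0.02 to the other 4 tested receptors. Counting error at so few counts weakens r, so these values do not show that it varied apart from them. The points share a library, so depth and tissue makeup of a mouse enter both values.

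Among all genes tested, the 3 that followed *Adrb3* most closely were *Tmem8b* (r = 0.965), *Tdrkh* (0.952) and *Atxn2* (0.946), which encodes an RNA-binding protein. For *Adrb1* they were the pseudogene *Gm5345* (0.949), *Rita1* (0.947) and *Ybx2* (0.940), which encodes a Y-box protein that binds nucleic acids. For *Adra1a* they were *Capns1*, the small subunit of calpain (0.982), *Ctf1*, the cytokine cardiotrophin (0.97), and *Hemk1* (0.970), for *Adra1d* *Cecr2* (0.967), *Ccdc69* (0.916) and *Tbccd1* (0.915), and for *Adra2b* *AU041133* (0.950), *Mterf1b* (0.947) and *Riox2* (0.922). They were picked as the highest of 14488 genes over 8 mice, so r is high by choice.

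The receptors' partners were read from the same fit, in the order of the signal, as 10 lists beside the receptors. At an adjusted p under 0.05 edgeR called 0 of their genes, and DESeq2 called 3, where it called 1.75% of all genes. These were *Adora2b*, 1 of 13 listed Gs-coupled receptors of adipocytes, and *Nr4a2* and *Elovl3*, 2 of 15 listed targets of beta-adrenergic signalling. It called no gene of the other lists. Noradrenaline is made in nerve endings whose cell bodies lie outside BAT, and 4 of 10 genes for its synthesis, transport and breakdown were tested, with 0 at an unadjusted p under 0.05, against 15.2% of all genes. *Dbh*, the enzyme that forms noradrenaline, had 0 counts in all 8 mice and *Th*, the rate-limiting enzyme, 0 to 9.

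Of the 9 G protein alpha subunits that receptors couple to, 8 were tested, with 1 at an unadjusted p under 0.05 in edgeR (15.2% of all genes) and a median log2 fold change of 0.01 against 0.0021 over all genes. *Gnas*, the Gs subunit that beta receptors use and the most abundant of them (mean TPM 1644), had a log2 fold change of -0.35 (SE 0.17, edgeR adjusted p = 0.352, and -0.18 without mice 11601 and 11708). *Gnai2*, a subunit of the Gi branch that alpha-2 receptors use, had 0.46 (SE 0.13, edgeR adjusted p = 0.316), with normalized values of 50.3 to 62.6 in control and 63.7 to 86.9 in Ox1RΔSERT mice that did not overlap. Mice 11708 and 11601 were the highest, and the value without both was 0.27.

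Of the 10 adenylyl cyclases, which make cAMP, 8 were tested and 3 had an unadjusted p under 0.05 in edgeR, 2 higher and 1 lower, against 10.2% and 4.96% of all genes. *Adcy3*, the most abundant (mean TPM 63.3), had a log2 fold change of -1.03 (SE 0.36, edgeR adjusted p = 0.316, and -0.70 without mice 11601 and 11708). Its normalized values overlapped, at 151 to 466 in control and 112 to 225 in Ox1RΔSERT mice. *Adcy5* (0.86, SE 0.32) and *Adcy7* (1.53, SE 0.65) had the opposite sign, and without mice 11601 and 11708 their values were 0.44 and -0.16. Farther along, 0 of 6 protein kinase A subunits, 0 of 6 phosphodiesterases of families 3 and 4, 0 of 4 phospholipase C beta genes and 1 of 7 receptor kinases and arrestins had an unadjusted p under 0.05, against 15.2% of all genes, with medians of -0.04, -0.18, 0.02 and 0.14. The 1 gene was *Arrb2* (0.70, SE 0.28, and 0.08 without mice 11601 and 11708), an arrestin that shuts off activated receptors.

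Other receptors of adipocytes that reach the same G proteins were set beside the adrenergic ones. Of 13 Gs-coupled receptors 10 were tested, with 2 higher at an unadjusted p under 0.05 in edgeR (10.2% of all genes), and of 7 Gi-coupled receptors all were tested, with 1 lower (4.96% of all genes). The Gs-coupled adenosine receptor *Adora2b* had a log2 fold change of 2.28 (SE 0.47), for which edgeR gave an adjusted p of 0.316 and DESeq2 one of 0.00288, and 1.41 without mice 11601 and 11708. Its normalized values were 0.384 to 0.654 in control and 0.830 to 4.20 in Ox1RΔSERT mice. The other two were the prostaglandin receptor *Ptger4* (0.66, SE 0.27) and the cannabinoid receptor *Cnr1* (-0.77, SE 0.26), with values of 0.61 and -0.37 without mice 11601 and 11708. In level, *Adrb3* at a mean TPM of 107 was above each of the listed receptors. Of these, *Adora1* (mean TPM 11.4) and *Ptger3* (9.04), both coupled to Gi, were the highest, with means between those of *Adra1a* and *Adrb1*. The *Adora1* mean leaned on control mouse 10684, at a normalized value of 160.5 against 28.9 to 63.9 in the other mice. Its TPM ran from 5.35 to 28.6.

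All 15 listed target genes of beta-adrenergic signalling were tested. Of their log2 fold changes 1 of 15 was above 0, against 50.4% of all genes tested. Their median was -0.36, against 0.0021 over all genes, or -0.08 without mice 11601 and 11708. The lean was not particular to these targets. Of the 8 brown adipocyte markers, which share *Ucp1*, *Cidea* and *Plin1* with this list, 1 was above 0, and of 5 Schwann cell markers 1. All 6 leukocyte, all 6 fibroblast and all 6 skeletal muscle markers were above 0. Summed TPM of the 15 genes overlapped between the groups, at 4544 to 5580 in control and 4609 to 5999 in Ox1RΔSERT mice. At an unadjusted p under 0.05 in edgeR, 4 of 15 were lower, against 4.96% of all genes. These were *Ucp1*, which uncouples respiration (-0.54, SE 0.18), *Dio2*, which activates thyroid hormone (-1.22, SE 0.50), the fatty acid elongase *Elovl3* (-1.07, SE 0.31) and the nuclear receptor *Nr4a2* (-1.03, SE 0.27). Without mice 11601 and 11708 the values were -0.34 for *Ucp1*, -0.87 for *Dio2*, -0.73 for *Elovl3* and -1.07 for *Nr4a2*. Normalized values of the groups did not overlap for 1 of 15, the lower *Elovl3*, against 2.81% of all genes tested. They overlapped for *Ucp1* (3731 to 4894.5 in control, 2513 to 3817 in Ox1RΔSERT mice), *Dio2* (198 to 1126 and 198 to 534) and *Nr4a2* (5.39 to 14.5 and 4.27 to 5.59). DESeq2 called *Nr4a2* and *Elovl3*, with adjusted p of 0.0298 and 0.0406.

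Markers of the cells that could carry the receptors were read in the same way. The 8 brown adipocyte markers had a median log2 fold change of -0.23, and the 7 of vascular smooth muscle and pericytes, cells known to carry alpha-1 receptors, 0.21, or -0.0051 and 0.0084 without mice 11601 and 11708. The 6 endothelial, 5 Schwann cell, 4 white adipocyte and 6 skeletal muscle markers had medians of -0.12, -0.16, 0.71 and 0.56, which were 0.02, -0.06, -0.14 and -3.74 without these mice. All 6 leukocyte and all 6 fibroblast markers were higher at an unadjusted p under 0.05 in edgeR, against 10.2% of all genes, with medians of 1.67 and 1.91, or 0.16 and 0.43 without mice 11601 and 11708. In mice 11601 and 11708, *Adrb3* was at normalized values of 114 and 176, *Adra1a* at 42.7 and 37.6 and *Adrb1* at 9.31 and 6.73. On this scale each was below the Ox1RΔSERT mice 11243 and 11613, as was *Adra1d* at 4.08 and 4.13. *Adra2b* went the other way, at 0.316 and 0.494 against 0.153 in mouse 11243 and 0.247 in mouse 11613. In TPM, *Adrb3* was higher in mouse 11708 (123) than in 11243 (109). *Adra1a* had a TPM of 13.9 in mouse 11601, against 12.1 in 11243 and 13.8 in 11613. The order of *Adra1d* turned fully in TPM, at 4.29 in 11601 and 4.45 in 11708 against 4.22 in 11243 and 3.95 in 11613. *Adrb1* stayed lower in TPM, at 6.59 in 11601 and 4.81 in 11708 against 8.01 in 11243 and 8.25 in 11613. The part of tissue makeup in these values was not tested.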

How the data were processed

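Salmon 0.14.1 estimated counts and TPM were deposited by the authors for BAT of 8 mice, from poly-A selected, stranded libraries, with GRCm38.p6 as the build and STAR also named in the submitters' processing notes. The deposited counts are not normalized, and TPM values were scaled by the authors for the length of transcripts. The authors' own comparison, made with DESeq2 1.26.0, was not used.

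Symbols came from GENCODE M21, which matched 44118 of 44674 identifiers. Rounded counts of 4 control and 4 Ox1RΔSERT mice were tested, two-sided and without covariates, in edgeR 4.0.16 (TMM, filterByExpr, glmQLFit, glmQLFTest, R 4.3.3), with Benjamini-Hochberg adjustment over the 14489 genes tested and a threshold of 0.05. Normalized values are CPM after TMM scaling, with a pseudocount of 0.1 for logs. Exact permutation tests covered all 70 assignments, two-sided. Alternatives were DESeq2 1.42.0, limma 3.58.1 (voom, quality weights, trend on TPM), other scalings and filters, and mice left out.

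The receptors and the gene lists were chosen with earlier results of these data known. Other adrenergic receptors were not analysed here. The rule for named genes was all 8 receptors, the 3 genes most correlated with each tested one, and per list those with an unadjusted p under 0.05 and up to 4 of highest TPM, of which not all are printed. Promoter windows are from RefSeq. Mice are separate animals with their own identifiers, so p-values rest on the spread between animals.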

Additional observations from a re-analysis of the deposited data

Results flagged for a closer look

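Of 18 sets of 4 mice checked for a single value far from the rest, 1 was found, where chance alone gives about 1 in 20. *Adra1a* was at a normalized value of 59.5 in control mouse 10684, against 40.6 to 42.3 in the other 3 control mice, a gap of 0.913 of the range, above Dixon's critical value for 4 samples.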

How the results depend on the processing

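With 4 mice a group, intervals of the receptors were wide, and a p that missed the threshold does not show that levels were equal. No paired analysis was possible because the labels give the mice of both groups no shared numbers. The count of genes called was 0 in edgeR's quasi-likelihood test, 266 in DESeq2 and 0 in all other fits, each mouse left out in turn included (0 to 0), and no receptor was called in any fit. Adjusted p of the receptors stayed between 0.227 and 0.999. Library size scaling and TPM moved the median of all genes by 0.22 (library size), 0.32 (log2(TPM + 0.1)) and 0.23 (log2(TPM + 1)). In the same order, *Adra1a* was at 0.18, 0.31 and 0.29 and *Adrb1* at 0.078, 0.19 and 0.16, which turned the sign of both. Of these 6 values, *Adra1a* on log2(TPM + 1) was above the shift of all genes and the other 5 were below it. *Adra1a* was 0.10 with voom quality weights and 0.16 without mice 11601 and 11708, and *Adrb1* was 0.31 without them. *Adra1d* was -0.0217 with voom quality weights, -0.0026 without a filter and -0.0225 with a transcript length offset. With each mouse left out in turn, log2 fold changes were -0.13 to 0.14 for *Adra1a*, -0.16 to 0.27 for *Adra1d*, -0.31 to 0.10 for *Adrb1*, 0.03 to 0.54 for *Adrb3* and -0.75 to -0.06 for *Adra2b*. *Adrb3* and *Adra2b* kept their sign in every fit, but *Adra2b* was removed by a minimum of 10 counts in every mouse. Exact permutation p with a turned sign was 0.171 for *Adra1a* and 0.686 for *Adrb1* in TPM. With each mouse left out, whether or not the sign turned, the exact permutation p was 0.429 to 0.886 for *Adra1a*, 0.314 to 0.971 for *Adra1d*, 0.4 to 1 for *Adra2a* and 0.429 to 1 for *Adrb1*. By estimated counts in place of TPM, *Adrb3* took 72.7% in control and 75.6% in Ox1RΔSERT mice and the alpha-1 class 21.8% and 19.8%, since long transcripts then weigh more. The cause of the other shifts was not tested.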
